A study of Mus musculus with 12 samples.

Results

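The calcium cycling genes of the sarcoplasmic reticulum were followed as 10 named genes, Ryr2, Fkbp1b, Casq2, Trdn, Hrc, Jph2, Atp2a2, Pln, Slc8a1 and Camk2d, in cardiomyocyte RNA of dystrophic mouse hearts. They were picked by symbol from a table of 18530 genes, and all 10 were found. Poly-A RNA was sequenced in 12 libraries of pelleted isolated cardiomyocytes, 3 in each of 4 groups: mdx:Utrn+/- with PB1046, mdx:Utrn+/- with saline, mdx with PB1046 and mdx with saline. The mdx strain lacks functional dystrophin, and mdx:Utrn+/- mice in addition carry a single working copy of utrophin, a dystrophin relative that can partly stand in for it. All groups share the mdx background, so no wild-type heart is compared here. PB1046 is a long-acting analog of vasoactive intestinal peptide, and the study set it against saline with an interest in cAMP, protein kinase A and CREB signalling. Dosing ran on alternate days between 4 and 12 weeks of age, and hearts were taken at 14 weeks. Of the doses in the protocol, 0.75 and 1.5 mg/kg, the higher is assumed for these libraries, whose labels name only a high dose. The labels do not say whether each library is a separate mouse or a pool, so the p-values measure the spread between these libraries only.

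In each heartbeat, calcium that enters through L-type channels opens the ryanodine receptor, and the sarcoplasmic reticulum releases the calcium that drives contraction. The calcium pump SERCA2a then draws it back, under the brake of phospholamban, and the sodium-calcium exchanger removes the rest from the cell. Protein kinase A, which cAMP activates, phosphorylates phospholamban and the ryanodine receptor. In dystrophic heart muscle, leaky ryanodine receptors and calcium overload are well described.

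The libraries held 7234100 to 25458191 reads, and the 10 genes took 0.645% to 1.16% of all transcripts. Values are TPM, transcript abundances relative to the library total, which are corrected for transcript length and can be set side by side between genes. Utrn was read first as the check of the genotype label. It stood at 4.39, 9.92 and 6.21 TPM in mdx:Utrn+/- hearts with PB1046 and at 3.32, 6.28 and 5.31 TPM in mdx:Utrn+/- hearts with saline, against 6.11, 17.1 and 18.3 TPM in mdx hearts with PB1046 and 8.92, 9.24 and 11.3 TPM in mdx hearts with saline. Groups were compared with limma, a linear model whose error estimates borrow strength across genes, on log2(TPM + 1) after scaling each library by a trimmed-mean factor, with p-values adjusted over all 12798 genes that passed a filter on low values. All 10 calcium cycling genes passed it. For Utrn the genotype difference averaged over treatments was -0.65 on the log2 scale (95% interval -1.11 to -0.19, adjusted p = 0.851 by limma), in the direction of the label but with overlapping groups and short of the threshold of 0.05. The highest Utrn values of each genotype came from libraries rich in endothelial markers, whose sums were 4967 TPM in replicate 2 of mdx:Utrn+/- with PB1046, and 4216 and 7283 TPM in replicates 2 and 3 of mdx with PB1046. The part of that signal in the Utrn difference was not tested.

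Along the first principal component, which carried 30.8% of the variance, 5 libraries stood apart from the other 7: replicate 2 of mdx:Utrn+/- with PB1046, and replicates 2 and 3 of both mdx groups. These 5 also had the highest summed levels of the 15 endothelial markers, all of which were detected. The endothelial sum was 1492, 4967 and 1826 TPM in mdx:Utrn+/- hearts with PB1046 and 1222, 1455 and 1581 TPM in mdx:Utrn+/- hearts with saline. It was 969, 4216 and 7283 TPM in mdx hearts with PB1046 and 1441, 2808 and 3749 TPM in mdx hearts with saline. The 16 sarcomere markers of cardiomyocytes summed to between 117709 and 156554 TPM, and all 16 were present, as the labelled cell type would have them. Of the other marker lists, 10 of 10 fibroblast genes were present and summed to 256 to 1148 TPM, 10 of 10 smooth muscle and pericyte genes to 134 to 450.1 TPM, 11 of 12 macrophage genes to 123 to 866 TPM and 5 of 5 erythroid genes to 19.1 to 1098 TPM. Of 6 atrial genes 5 passed the filter on low values, and the list summed to 531 to 5102 TPM. Of 8 skeletal muscle genes 5 passed it, and the list summed to 4008 to 5050.3 TPM. Up to 3 of the 8 were at 0 in a library, so the sum comes from a part of the list. The share of skeletal muscle in this sum was not tested. Because these are bulk samples, fewer cardiomyocytes and less RNA per cardiomyocyte cannot be told apart in any value below.

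The 10 genes spanned 3 orders of size. Averaged over the 12 libraries, Pln led with 3341 TPM, before Atp2a2 with 2868, Hrc with 1380 and Casq2 with 743 TPM. A middle tier followed, with Jph2 at 219, Trdn at 147, Ryr2 at 87.5 and Camk2d at 73.1 TPM. Slc8a1 averaged 27.0 TPM and Fkbp1b 1.56 TPM. The ranges of neighbours in this order overlapped in every case except between Casq2 and Jph2, between Camk2d and Slc8a1, and between Slc8a1 and Fkbp1b. Within a library the order was steadier than the ranges show: Pln exceeded Atp2a2 in 11 of 12 libraries, Hrc exceeded Casq2 in 11, Trdn exceeded Ryr2 in 11 and Ryr2 exceeded Camk2d in 9.

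**Figure D1:**
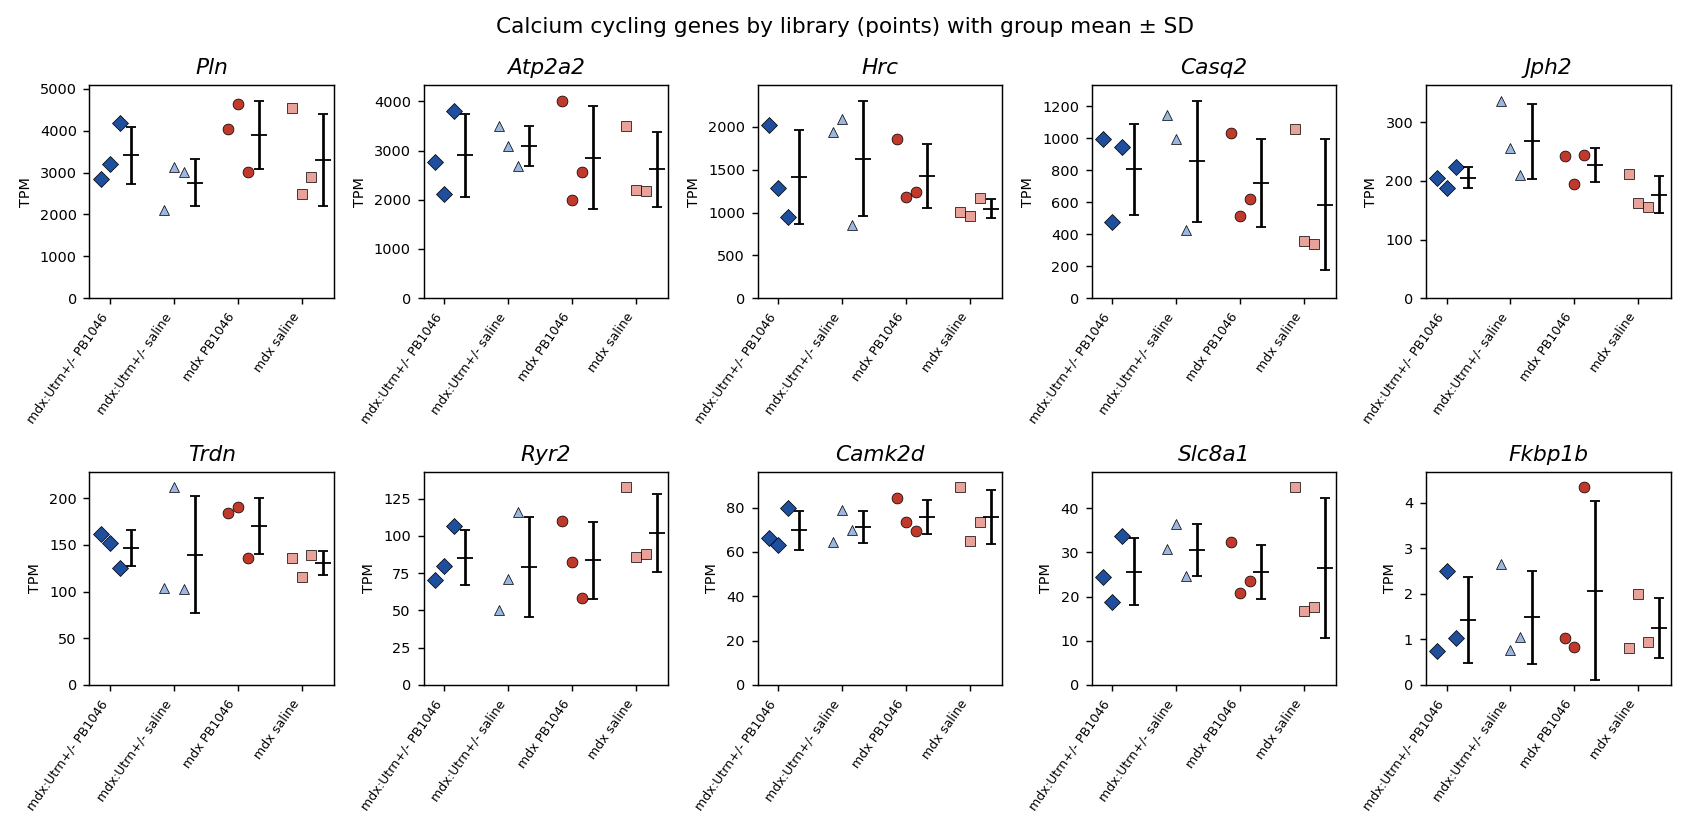
Level in TPM (linear axis from 0, own scale per gene) of each calcium cycling gene in each library (points, 3 per group), with the group mean ± SD beside them, in order of mean level. PB1046 and saline overlap within a genotype for every gene but Hrc in mdx, where 1177 stands against 1174 TPM, and Casq2 runs from 337 to 1147 TPM.

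Ryr2 (chr13:11553103-12106945, minus strand, mm10) encodes the cardiac ryanodine receptor, the release channel itself. It stood at 70.4, 79.6 and 106 TPM in mdx:Utrn+/- hearts with PB1046 and at 50.3, 70.9 and 116 TPM in mdx:Utrn+/- hearts with saline. In mdx hearts it stood at 110.0, 82.4 and 58.2 TPM with PB1046 and at 132, 85.6 and 88.0 TPM with saline. The 4 groups overlapped, and the highest library was replicate 1 of mdx with saline and the lowest replicate 1 of mdx:Utrn+/- with saline. The other ryanodine receptors were almost silent, with Ryr1, the skeletal form, at 0 to 0.132 TPM and Ryr3 at 0.0997 to 0.408 TPM.

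Fkbp1b (chr12:4833174-4841595, minus strand) encodes calstabin 2, the FK506-binding protein that binds the cardiac ryanodine receptor. It was scarce, at 0.749, 2.49 and 1.04 TPM in mdx:Utrn+/- hearts with PB1046 and 2.65, 0.763 and 1.04 TPM with saline, and at 1.03, 0.843 and 4.33 TPM in mdx hearts with PB1046 and 0.809, 2.00 and 0.936 TPM with saline. These values rest on 3 to 34 reads per library, and the groups overlapped in both genotypes. With PB1046 against saline it differed by -0.15 log2 units in mdx:Utrn+/- hearts (95% interval -1.02 to 0.72) and by 0.19 in mdx hearts (-0.67 to 1.06). Its close relative Fkbp1a, which also binds ryanodine receptors, was at 116 to 260.2 TPM in the same libraries.

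Casq2 (chr3:102086455-102146512, plus strand) encodes calsequestrin 2, which buffers calcium inside the reticulum. Its levels were 993, 475 and 949 TPM in mdx:Utrn+/- hearts with PB1046 and 1147, 995 and 429 TPM in mdx:Utrn+/- hearts with saline. In mdx hearts they were 1033, 512 and 623 TPM with PB1046 and 1061, 360.3 and 337 TPM with saline. Every group held both high and low libraries, and the spread within groups was wider than that between their means. On the log2 scale its SD within groups was 0.83, larger than that of 96.7% of the 12798 genes tested, whose median was 0.32. Casq1, the skeletal calsequestrin, was at 3.45 to 18.1 TPM.

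Trdn (chr10:33083483-33476709, plus strand) encodes triadin, which ties calsequestrin to the release channel. It ran at 162, 152 and 125 TPM in mdx:Utrn+/- hearts with PB1046 and 104, 212 and 103 TPM with saline, and at 184, 191 and 136 TPM in mdx hearts with PB1046 and 136, 115 and 139 TPM with saline. In mdx hearts, 2 of 3 PB1046 libraries lay above all saline libraries as deposited, while the third lay within their range. After scaling, the third lay below all saline libraries, at 106 against 108 TPM for the lowest of them. Hrc (chr7:45335269-45338972, plus strand), the histidine-rich calcium-binding protein of the reticulum lumen, stood at 2022, 1282 and 953 TPM in mdx:Utrn+/- hearts with PB1046 and 1941, 2092 and 854 TPM with saline. The mdx hearts had 1857, 1177 and 1242 TPM of Hrc with PB1046 and 1007, 959 and 1174 TPM with saline. All 3 mdx PB1046 values of Hrc lay above all 3 saline values as deposited, but the lead of replicate 2 was only 1177 against 1174 TPM, and after scaling the groups overlapped.

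Jph2 (chr2:163336242-163397993, minus strand) encodes junctophilin 2, which holds the reticulum against the transverse tubules. It was at 204, 188 and 223 TPM in mdx:Utrn+/- hearts with PB1046, against 336, 255 and 209 TPM in mdx:Utrn+/- hearts with saline. In mdx hearts it was at 243, 194 and 245 TPM with PB1046, against 212, 162 and 155 TPM with saline. The highest of all 12 libraries was replicate 1 of mdx:Utrn+/- with saline and the 2 lowest were mdx libraries with saline. Its within-group SD of 0.34 on the log2 scale was near the median of all genes. Jph1, a junctophilin of skeletal muscle, was at 3.10 to 8.30 TPM.

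Atp2a2 (chr5:122453513-122502225, minus strand) encodes the SERCA2 pump. Its levels were 2772, 2119.8 and 3805 TPM in mdx:Utrn+/- hearts with PB1046 and 3499, 3082 and 2695 TPM with saline, and 4011, 2003 and 2559 TPM in mdx hearts with PB1046 and 3501, 2196 and 2172 TPM with saline. The mdx:Utrn+/- saline libraries were the closest to each other, and the other groups each spanned 1.61-fold to 2.00-fold. The other pumps were minor: Atp2a1, of fast skeletal muscle, reached at most 0.548 TPM, and Atp2a3, found in many non-muscle cells, ran at 1.89 to 11.5 TPM. Atp2a3 is also expressed by endothelial cells.

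Pln (chr10:53337686-53345999, plus strand) encodes phospholamban, the inhibitor of SERCA2. It stood at 2846, 3196 and 4179 TPM in mdx:Utrn+/- hearts with PB1046 and at 2114, 3133 and 3015 TPM with saline. The mdx hearts had 4049, 4627 and 3018 TPM with PB1046 and 4548, 2489 and 2881 TPM with saline. Replicate 1 of mdx with saline, at 4548 TPM, lay among the PB1046 libraries, and the groups overlapped in both genotypes. The protein kinase A and CaMKII sites of phospholamban are neighbouring residues. The reading frame of 52 codons that all 6 annotated transcripts share (GENCODE M21) is shown here around them, from codon 13 to codon 20, with the serine codon 16 and the threonine codon 17 in capitals.
Pln codons: aggagagccTCCACTattgaaatg
RNA levels do not report on phosphorylation at these codons, which was not measured here. Sarcolipin (Sln), the atrial relative of phospholamban, ran at 0.246 to 21.3 TPM.

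Slc8a1 (chr17:81373105-81738387, minus strand) encodes the sodium-calcium exchanger NCX1. It was at 24.3, 18.7 and 33.7 TPM in mdx:Utrn+/- hearts with PB1046 and 30.7, 36.4 and 24.6 TPM with saline, and at 32.3, 20.7 and 23.5 TPM in mdx hearts with PB1046 and 44.6, 16.8 and 17.7 TPM with saline. The mdx saline group held both the highest library and the 2 lowest. Camk2d (chr3:126596973-126845054, plus strand) encodes the delta chain of CaMKII, the kinase that phosphorylates the ryanodine receptor and phospholamban. It was the steadiest of the 10, with an SD within groups of 0.29 on the log2 scale. Its levels were 66.4, 62.9 and 79.6 TPM in mdx:Utrn+/- hearts with PB1046, 64.6, 78.9 and 69.9 TPM in mdx:Utrn+/- hearts with saline, 84.4, 73.4 and 69.5 TPM in mdx hearts with PB1046 and 89.0, 64.8 and 73.5 TPM in mdx hearts with saline. Camk2g, another CaMKII chain, was at 13.7 to 32.6 TPM.

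The first comparison asked whether PB1046 moved these genes in mdx hearts. None of the 10 passed an adjusted p of 0.05 by limma, and neither did any of the 12798 genes tested (0% called). At an unadjusted p under 0.05 there were 416 genes (3.25%), none of them among the 10. With PB1046, 6 of the 10 lay above saline and 4 below, with a median difference of 0.13 on the log2 scale, beside -0.02 over all genes. The largest was that of Ryr2, at -0.48 (95% interval -1.29 to 0.32, adjusted p = 0.998), with a scaled mean of 74.9 TPM with PB1046 and 100.1 TPM with saline. Casq2 differed by 0.27 (-0.999 to 1.53), Hrc by 0.24 (-0.70 to 1.17), Trdn by 0.19 (-0.48 to 0.86) and Jph2 by 0.19 (-0.40 to 0.77). Atp2a2 differed by -0.08 (-0.93 to 0.76) and its inhibitor Pln by 0.08 (-0.59 to 0.75). On the scaled values none of the 10 separated the PB1046 from the saline libraries, which 3.56% of all genes did upward and 5.08% downward. Without replicate 1 of mdx with PB1046, 1 of the 10 genes lay above saline in place of 6, and the median was -0.13.

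In mdx:Utrn+/- hearts PB1046 likewise moved none of the 10 genes past the threshold, with 0% of all genes called. Here 256 genes (2.00%) had an unadjusted p under 0.05, none of them among the 10. Of the 10, 8 lay below saline and 2 above, with a median difference of -0.21, beside -0.00 over all genes. Jph2 differed most, at -0.53 (-1.11 to 0.06, unadjusted p = 0.0721, adjusted p = 0.999 by limma), with a scaled mean of 213 TPM with PB1046 and 310.1 TPM with saline. Slc8a1 differed by -0.44 (-1.33 to 0.46), Hrc by -0.34 (-1.27 to 0.60), Atp2a2 by -0.30 (-1.14 to 0.55) and Casq2 by -0.22 (-1.48 to 1.05). Ryr2 differed by 0.00 (-0.80 to 0.80), Trdn by -0.02 (-0.70 to 0.65) and Pln by 0.14 (-0.53 to 0.81). Again none separated the groups, where 3.13% of all genes did so upward and 2.59% downward. Replicate 2 of mdx:Utrn+/- with PB1046 is the library with the high endothelial sum in this pair of groups, and without it 5 of the 10 genes lay above saline and the median was 0.01.

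The response to PB1046 was also compared between genotypes, as the response in mdx:Utrn+/- minus that in mdx. None of the 10 genes and 0% of all genes passed the threshold, and of the 307 genes (2.40%) with an unadjusted p under 0.05 none was among the 10. The largest value was that of Jph2, at -0.71 (-1.54 to 0.11, adjusted p = 0.999 by limma), with a response of -0.53 in mdx:Utrn+/- hearts and 0.19 in mdx hearts. Hrc gave -0.57 (-1.90 to 0.75), Ryr2 0.49 (-0.65 to 1.62) and Casq2 -0.48 (-2.27 to 1.31). For Pln the value was 0.06 (-0.89 to 1.00). The intervals reached 0.74 to 1.79 log2 units to either side, so a difference of the responses below about that size could not be resolved.

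**Figure D2:**
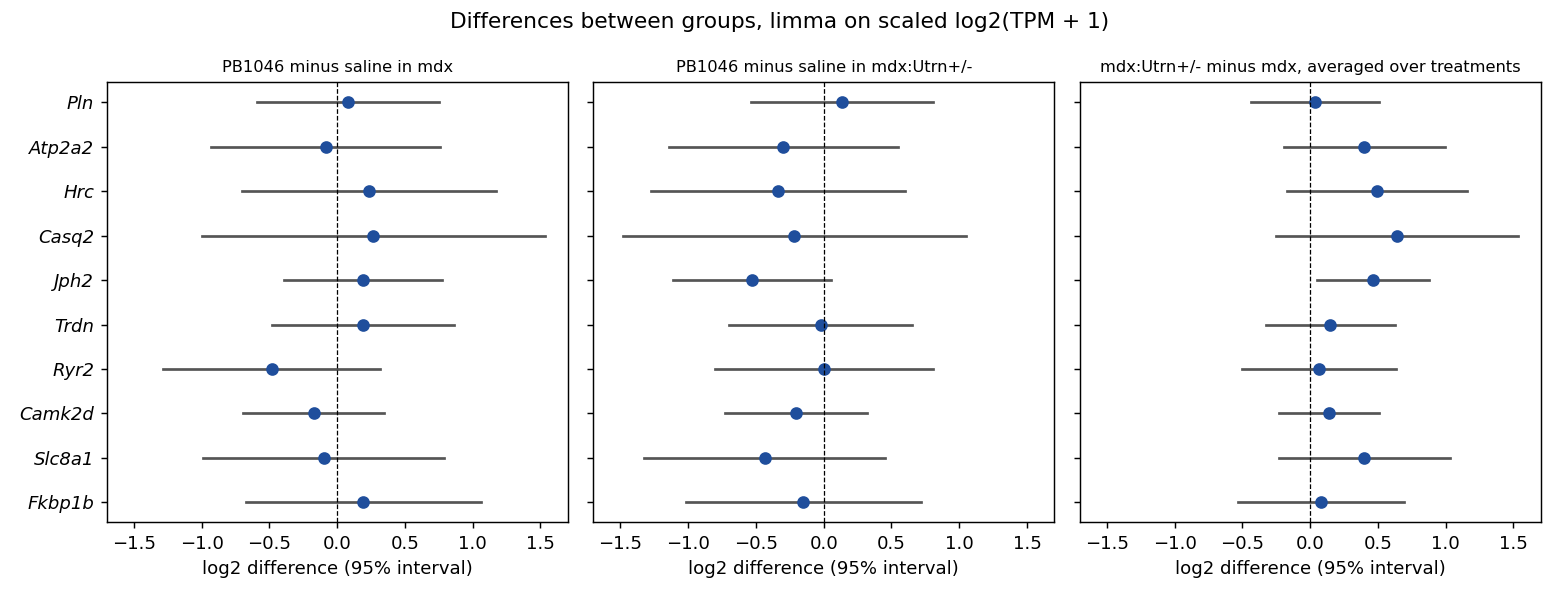
Log2 differences of the 10 genes (points) with 95% intervals (lines), from the fit over all 12 libraries, for PB1046 minus saline in each genotype and for mdx:Utrn+/- minus mdx averaged over treatments. The interval of Jph2 in the genotype comparison, 0.05 to 0.88, is the only interval that leaves out 0.

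Between the genotypes, averaged over treatments, all 10 genes lay above 0 in mdx:Utrn+/- hearts, with a median of 0.27 on the log2 scale beside -0.00 over all genes. None passed the threshold, with 0% of all genes called, and Jph2 was the only one of the 10 among the 497 genes (3.88%) with an unadjusted p under 0.05. Jph2 differed by 0.47 (0.05 to 0.88, unadjusted p = 0.0299, adjusted p = 0.851 by limma), with a scaled mean of 262 TPM in mdx:Utrn+/- hearts and 186 TPM in mdx hearts. The largest difference was that of Casq2, at 0.64 (-0.26 to 1.54), with scaled means of 931 TPM in mdx:Utrn+/- and 616 TPM in mdx hearts. Hrc differed by 0.49 (-0.17 to 1.16), Atp2a2 by 0.40 (-0.20 to 1.00) and Slc8a1 by 0.40 (-0.23 to 1.03). Ryr2 differed by 0.06 (-0.50 to 0.63) and Pln by 0.03 (-0.44 to 0.51). No gene of the 10 separated the 6 mdx:Utrn+/- from the 6 mdx libraries, which 0.0703% of all genes did upward and 0.0234% downward.

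The count of genes above 0 depended on the libraries that stood apart. Of those 5 libraries, 4 were mdx and 1 was mdx:Utrn+/-. The 4 mdx libraries also carry the highest library numbers of the series, and the labels do not say what these numbers stand for. The part of library number in the genotype difference was not tested. Without the 5 libraries, in a setting chosen after the data were seen, 3 of the 10 genes (Jph2, Hrc and Fkbp1b) lay above 0. The median was -0.09, with Casq2 at -0.10, Atp2a2 at -0.09 and Jph2 at 0.22. The same 3 lay above the median of all genes, which was 0.02. That fit has 2 and 3 libraries of mdx:Utrn+/- with PB1046 and saline and 1 of each mdx group, and a lone library is assumed to vary like the other groups. With the endothelial score as a term, 8 of the 10 lay above 0 and 6 above the median of all genes, the members' median was 0.15, and Jph2 was at 0.33. Without the scaling factor, or scaled to the sarcomere genes, the median of all genes was -0.21 and -0.23 and that of the 10 genes 0.05 and 0.02, so that 5 of the 10 lay above 0 but 9 above the median of all genes in both settings. In the authors' deposited table, where the fold change is mdx saline minus mdx:Utrn+/- saline, Jph2 had a log2 fold change of -0.85 (p = 0.00743, false discovery rate 0.935). The authors' deposited table gave Hrc a log2 fold change of -0.89 in the same direction (p = 0.0354, false discovery rate 0.935). For the PB1046 groups, as mdx minus mdx:Utrn+/-, the authors' deposited table gave Jph2 -0.08 (p = 0.800) and Hrc -0.22 (p = 0.608), both with a false discovery rate of 1.

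The levels of some of the 10 genes were lower in the 5 libraries that stood apart, which had the highest endothelial sums, than in the others. The 5 lowest values of Atp2a2, 2003 to 2559 TPM, came from the 5 libraries that stood apart, and so did the 5 lowest of Slc8a1, 16.8 to 23.5 TPM. Within those 5 the levels did not fall further as the sum rose. Replicate 3 of mdx with PB1046, with a sum of 7283 TPM, had the highest Atp2a2 and Slc8a1 of the 5 as deposited. For Casq2, 4 of those 5 libraries were among the 5 lowest, and the remaining place belonged to replicate 3 of mdx:Utrn+/- with saline, at 429 TPM with an endothelial sum of 1581 TPM. Jph2 as deposited had the same tally, with 4 of those 5 libraries among its 5 lowest. The remaining place went to replicate 1 of mdx:Utrn+/- with PB1046, at 204 TPM with an endothelial sum of 1492 TPM. The other of the 5 that stood apart, replicate 3 of mdx with PB1046, had the highest endothelial sum, 7283 TPM, and 245 TPM of Jph2. After scaling, the 5 libraries that stood apart had the 5 lowest Jph2 values, 152 to 191 TPM, against 211 TPM or more in the others. The same held for scaled Camk2d, at 54.2 to 73.8 TPM against 76.9 TPM or more. Pln as deposited did not follow this split. Replicate 2 of mdx with PB1046, with an endothelial sum of 4216 TPM, had the highest Pln of all at 4627 TPM. After scaling, that library had 3634 TPM of Pln, below 4521 TPM in replicate 1 of mdx with saline. On scaled values 4 of the 5 libraries that stood apart were among the 5 lowest for Pln. The remaining place went to replicate 1 of mdx:Utrn+/- with saline, at 2516 TPM. The first component was computed over all genes, these 10 included. The part of the endothelial signal in these levels was not tested.

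**Figure D3:**
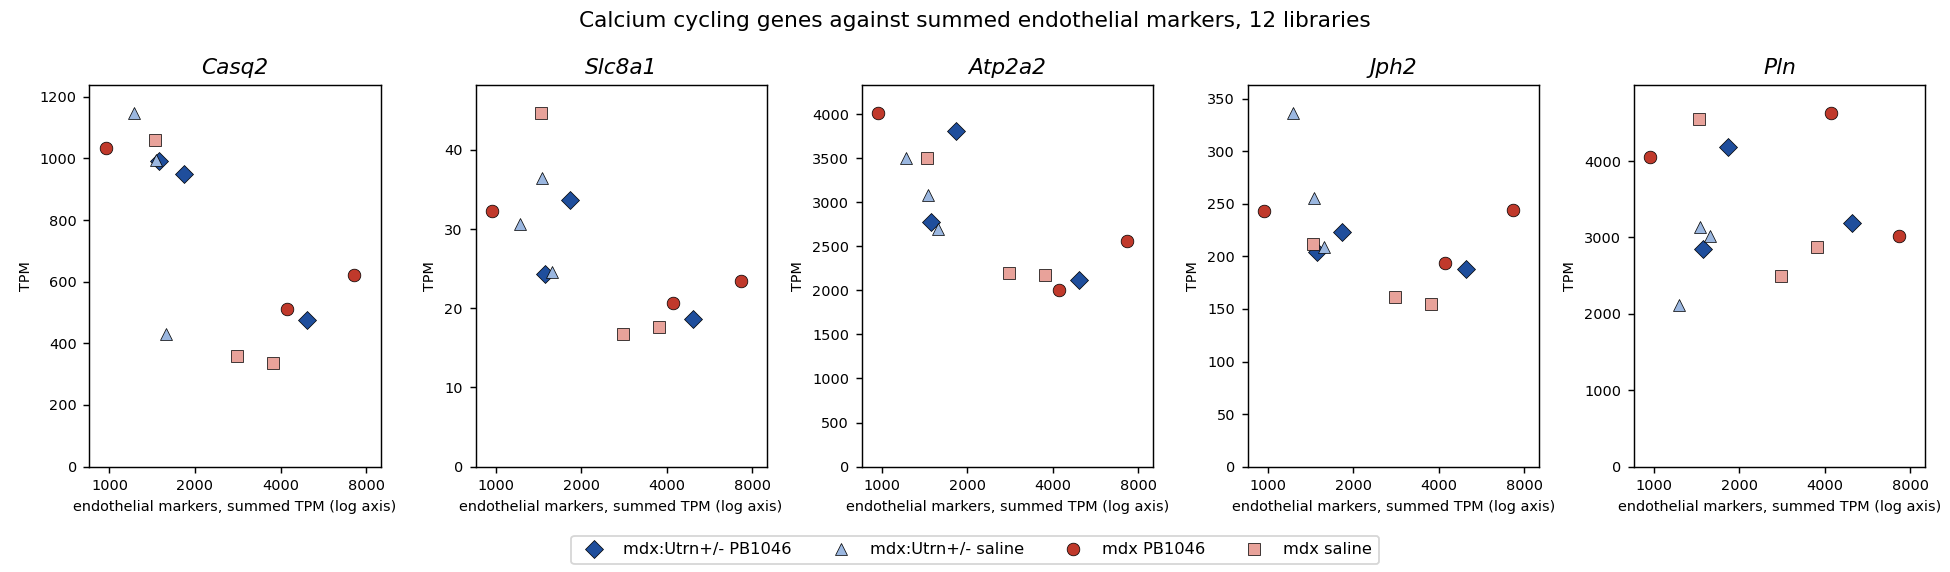
Level in TPM (linear axis from 0) of 5 calcium cycling genes against the summed TPM of 15 endothelial markers (log axis) in the 12 libraries, coloured by group. Slc8a1 and Atp2a2 are lowest in the 5 libraries whose endothelial sum is 2808 TPM or more, and Pln as deposited shows no such split.

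Ratios within a library remove what all genes of that library share. The RNA ratio of Slc8a1 to Atp2a2, the exchanger gene to the pump gene, had an SD of 0.22 on the log2 scale over the 12 libraries. Across the 45 pairs of the 10 genes, this ratio was the most constant. It was 0.00876, 0.00882 and 0.00886 in mdx:Utrn+/- hearts with PB1046 and 0.00876, 0.0118 and 0.00912 with saline. In mdx hearts it was 0.00806, 0.0103 and 0.00918 with PB1046 and 0.0128, 0.00763 and 0.00814 with saline. The ratio thus spanned 1.67-fold while Slc8a1 itself spanned 2.66-fold. Since a ratio of 2 values from the same library shares its depth, and this pair was singled out as the smallest of 45, it is given as a description.

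The ratio of the inhibitor to the pump, Pln over Atp2a2, was 1.03, 1.51 and 1.10 in mdx:Utrn+/- hearts with PB1046 and 0.604, 1.02 and 1.12 with saline. In mdx hearts it was 1.01, 2.31 and 1.18 with PB1046 and 1.30, 1.13 and 1.33 with saline. The ratio lay between 1.01 and 1.51 in 10 of 12 libraries, with a single low library in mdx:Utrn+/- with saline and a single high one in mdx with PB1046, and the groups overlapped. The store to the channel, Casq2 over Ryr2, ranged most widely of the ratios shown, at 14.1, 5.96 and 8.91 in mdx:Utrn+/- hearts with PB1046 and 22.8, 14.0 and 3.69 with saline, and at 9.40, 6.22 and 10.7 in mdx hearts with PB1046 and 8.01, 4.21 and 3.83 with saline. Jph2 over Ryr2 was 2.90, 2.36 and 2.10 in mdx:Utrn+/- hearts with PB1046 and 6.69, 3.60 and 1.80 with saline. In mdx hearts Jph2 over Ryr2 was 2.21, 2.35 and 4.20 with PB1046 and 1.60, 1.89 and 1.76 with saline. None of these ratios was tested between groups.

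**Figure D4:**
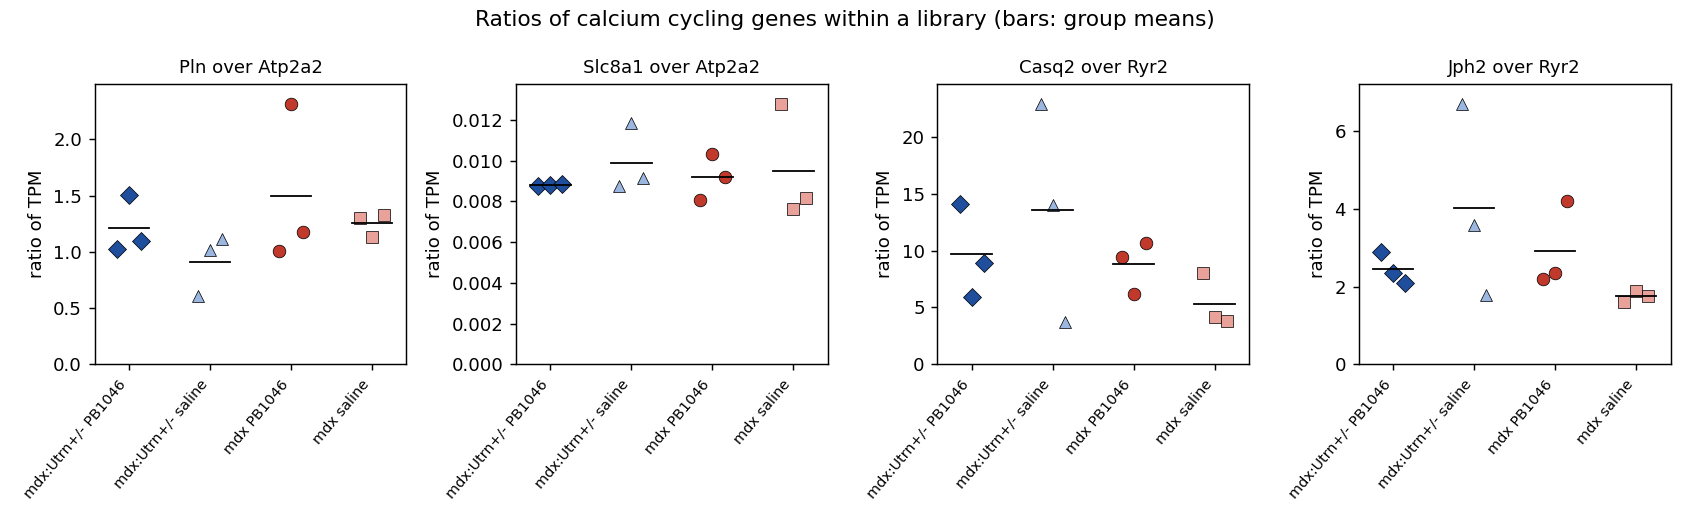
Ratio of TPM values within each library (points, linear axes from 0) for 4 pairs of calcium cycling genes, with group means as bars. Slc8a1 over Atp2a2 keeps between 0.00763 and 0.0128, and Casq2 over Ryr2 runs from 3.69 to 22.8.

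The genes whose levels ran most like those of the members were found by Pearson correlation over the 12 libraries, which share depth and cell mixture, and are given as a description. For Ryr2 they were Ubr3 (r = 0.98), Fhod3 (r = 0.97) and Strip2 (r = 0.96). Fhod3 is a formin of the cardiac sarcomere. For Atp2a2 they included Fem1a and Slc16a1, both at r = 0.97. Slc16a1 is the lactate carrier MCT1. For Pln they were Prkaa2 (r = 0.98), Isca1 (r = 0.98) and Lrrc39 (r = 0.97). Prkaa2 is a catalytic chain of AMP-activated kinase, and Lrrc39 is a protein of the sarcomere M-band.

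Other calcium genes were read in 5 lists, and no gene of any list passed the threshold in any of the 4 comparisons. Of 22 release genes 18 were tested, of 16 uptake genes 13, of 17 CaMKII and calcineurin genes 16, of 24 sarcolemmal genes 19 and of 11 mitochondrial genes 10. The 10 mitochondrial calcium genes all lay above 0 in mdx:Utrn+/- against mdx hearts, where 49.8% of all genes did. Their median was 0.13 log2 units, beside -0.00 over all genes. Of the mitochondrial genes Smdt1, the EMRE subunit of the mitochondrial uniporter, differed by 0.38 (0.02 to 0.74, adjusted p = 0.851 by limma). The release list was balanced in the same comparison, with 9 genes above 0, 9 below and a median of 0.04. Above and below 0 were 8 and 5 uptake genes, 6 and 10 CaMKII and calcineurin genes, and 13 and 6 sarcolemmal genes. How the counts of these lists depend on the scaling and on the 5 libraries that stood apart was not tested.

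Rrad, a small GTPase that inhibits L-type channels, had the smallest unadjusted p of these lists. With PB1046 it was at 128, 148 and 139.9 TPM in mdx hearts, against 415, 254 and 264 TPM with saline, and the groups did not overlap. The difference was -1.31 log2 units (-1.999 to -0.61, unadjusted p = 0.00146, adjusted p = 0.998 by limma). In mdx:Utrn+/- hearts Rrad was at 195, 187 and 315 TPM with PB1046, against 288, 279 and 162 TPM with saline, and these overlapped. Nfatc2, a calcineurin target, differed by -0.54 in mdx hearts (-0.94 to -0.13, adjusted p = 0.998 by limma). Calr, the calcium-binding chaperone calreticulin, differed by 0.40 between mdx:Utrn+/- and mdx hearts (0.01 to 0.79), and S100a1, which binds the release channel and the pump, by 0.43 (-0.02 to 0.88). In the same comparison Tmem38a, a potassium channel of the reticulum, differed by 0.43 (-0.10 to 0.96), the phosphatase inhibitor Ppp1r1a by 0.32 (-0.11 to 0.75), Cacng6 by -0.51 (-0.95 to -0.07) and Sln by -1.49 (-2.98 to 0.0023). In mdx hearts with PB1046 against saline, Camk2a differed by -0.45 (-1.03 to 0.13) and the mitochondrial exchanger gene Letm1 by -0.42 (-1.05 to 0.21). The response to PB1046 differed between genotypes by 0.63 for Camk2g (0.07 to 1.18) and by -1.13 for Jsrp1, a protein of the release complex in skeletal muscle (-2.41 to 0.14). The adjusted p of all of these was 0.851 or more by limma. Some of these genes had few reads per library, 1 to 24 for Cacng6 and 1 to 131 for Sln. Ppp1r1a had 14 to 49 reads per library and Jsrp1 15 to 53.

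Because the study asked about CREB signalling, the promoters of the members were read for its motif. RefSeq promoters, 250 bases before to 50 after the start (GRCm38.p6, the build that mm10 names), were found for 8 of the 10 genes, as 9 windows in all, with no entry for Atp2a2 and Trdn. The full cAMP response element TGACGTCA, searched on both strands, was in none of the 9, while 1.79% of 32851 promoters held it. Its core TGACG was in Fkbp1b only, and in 20.8% of all promoters. The letters of the TATA box, TATAAA on the gene strand, stood in the Pln window from -219 and in 8.32% of all promoters, and a MEF2 consensus, a motif of muscle promoters, stood in the Casq2 window and in 3.19% of all. Casq2 had the largest SD within groups of the 10 genes on the scaled log2(TPM + 1) scale. Its MEF2 match stands from -69, counted from the start site. The core in Fkbp1b reads CGTCA on the gene strand from -103. The windows of Fkbp1b and Casq2 are shown with the match in capitals. Their positions are chr12:4841524-4841823, minus strand, and chr3:102086165-102086464, plus strand.
Fkbp1b promoter: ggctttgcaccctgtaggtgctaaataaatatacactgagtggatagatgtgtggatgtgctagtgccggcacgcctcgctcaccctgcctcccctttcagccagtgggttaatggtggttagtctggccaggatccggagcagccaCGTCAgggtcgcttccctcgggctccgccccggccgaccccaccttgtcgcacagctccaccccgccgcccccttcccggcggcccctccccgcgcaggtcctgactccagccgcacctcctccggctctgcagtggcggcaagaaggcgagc
Casq2 promoter: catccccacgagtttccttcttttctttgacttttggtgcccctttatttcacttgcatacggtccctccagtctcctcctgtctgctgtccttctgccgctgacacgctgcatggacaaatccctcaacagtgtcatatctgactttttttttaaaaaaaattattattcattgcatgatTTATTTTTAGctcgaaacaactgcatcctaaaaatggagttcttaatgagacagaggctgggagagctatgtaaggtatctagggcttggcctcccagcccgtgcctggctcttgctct
A match is a description of these letters and not of a bound factor.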

How the data were processed

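Poly-A RNA of 12 libraries was read from 1 deposited table of 18530 genes on mm10. Its name speaks of raw counts, but the values the authors deposited are TPM, since they are not whole and every library has the same sum. The authors' deposited table also holds, per the file headers, a log2 fold change, p-value and false discovery rate for pairs of groups. The submitters' processing notes name edgeR and mm10. No source used here gives the aligner, the counter or whether counting used strand. Whole reads were recovered from TPM for 100% of genes within 0.1 reads.

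TPM were divided by trimmed-mean factors (0.840 to 1.28, trimming 30% of log ratios and 5% of levels) and put on log2(TPM + 1), a scale that understates changes of scarce genes. A gene was tested where 3 or more libraries had 1 TPM or more, which left 12798 genes for limma 3.58.1 (R 4.3.3), fitted by group means (8 residual degrees of freedom), with trend and robust moderation and Benjamini-Hochberg adjustment at 0.05. Levels are TPM as deposited, and scaled means carry the factor. The fit was run on simulated counts with known changes and no differences in cell mixture between libraries. That run does not show how the fit performs at the spread of these libraries. Named outside the 10 genes are, per list, the 3 genes with the smallest p in any comparison, and for Ryr2, Atp2a2 and Pln the 3 genes most like each. Some genes that this rule names are not reported here. Paralogs were read after their values were seen. The members and lists were chosen with earlier results of these data known. Counting error only is covered by read numbers.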

Additional observations from a re-analysis of the deposited data

How the results depend on the processing

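No member passed an adjusted p of 0.05 in any of the 4 comparisons under the 8 other planned settings or with any of the 12 libraries left out in turn. The smallest adjusted p of a member over these settings was 0.644 for the PB1046 response in mdx, 0.532 in mdx:Utrn+/-, 0.463 for the difference of the responses and 0.379 for the genotype difference. Of 40 member differences, 9 kept their sign in every setting. The count of genes past the threshold was 0 in every planned setting with all libraries and without the 5 libraries that stood apart, and 0 to 1 with a single library left out. The 1 gene, Tmem181b-ps, was called for the difference of the responses without mdx:Utrn+/- saline replicate 3 (log2 2.51, adjusted p = 0.0256). Without a scaling factor the median of all genes moved to 0.14 for the PB1046 response in mdx, 0.15 in mdx:Utrn+/- and -0.21 for the genotype difference, and with sarcomere scaling to 0.25, 0.14 and -0.23. Without a scaling factor, the values on the other side of 0 were, for the PB1046 response in mdx, Atp2a2 0.0998, Slc8a1 0.075 and Camk2d 0.0070, and for the PB1046 response in mdx:Utrn+/-, Trdn 0.15. In that setting they were for the genotype difference Ryr2 -0.18, Pln -0.21, Trdn -0.097, Camk2d -0.10 and Fkbp1b -0.059. Scaled to the sarcomere genes, the values on the other side of 0 were, for the PB1046 response in mdx, Atp2a2 0.22, Slc8a1 0.19 and Camk2d 0.13, and for the PB1046 response in mdx:Utrn+/-, Trdn 0.13. In that setting they were for the difference of the responses Pln -0.089, and for the genotype difference Ryr2 -0.20, Pln -0.24, Trdn -0.12, Camk2d -0.13 and Fkbp1b -0.083. With length and abundance trends removed, the values on the other side of 0 were, for the PB1046 response in mdx, Atp2a2 0.089, and for the PB1046 response in mdx:Utrn+/-, Ryr2 -0.018. In that setting they were for the difference of the responses Pln -0.098, and for the genotype difference Pln -0.13. With the endothelial score as a term, the values on the other side of 0 were, for the PB1046 response in mdx:Utrn+/-, Atp2a2 0.092, Casq2 0.38, Trdn 0.20 and Camk2d 0.020, and for the difference of the responses, Atp2a2 0.16, Casq2 0.095, Slc8a1 0.054 and Camk2d 0.19. In that setting they were for the genotype difference Ryr2 -0.11 and Pln -0.11. Without the 5 libraries that stood apart, chosen after the data were seen, the genotype differences on the other side of 0 were Ryr2 -0.42, Atp2a2 -0.086, Pln -0.33, Casq2 -0.099, Slc8a1 -0.20, Trdn -0.051 and Camk2d -0.11. With a library left out, differences that changed sign had these lowest and highest values. For the PB1046 response in mdx they ran from -0.50 to 0.21 for Atp2a2, from -0.13 to 0.35 for Pln, from -0.16 to 0.81 for Casq2, from -0.41 to 0.35 for Slc8a1, from -0.0029 to 0.36 for Jph2, from -0.0086 to 0.42 for Trdn, from -0.11 to 0.42 for Hrc and from -0.22 to 0.48 for Fkbp1b. For the PB1046 response in mdx:Utrn+/- they ran from -0.26 to 0.30 for Ryr2, from -0.53 to 0.033 for Atp2a2, from -0.039 to 0.30 for Pln, from -0.67 to 0.25 for Casq2, from -0.21 to 0.32 for Trdn and from -0.38 to 0.20 for Fkbp1b. For the difference of the responses they ran from -0.51 to 0.20 for Atp2a2, from -0.21 to 0.27 for Pln, from -0.44 to 0.12 for Trdn, from -0.16 to 0.19 for Camk2d and from -0.63 to 0.070 for Fkbp1b. For the genotype difference they ran from -0.088 to 0.24 for Ryr2, from -0.089 to 0.17 for Pln, from -0.022 to 0.25 for Trdn and from -0.093 to 0.29 for Fkbp1b. The causes of these sign changes were not tested.

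The labels do not say whether the replicate numbers pair the libraries. The correlations of same-numbered deviations ran from -0.19 to 0.49, and 10 of 24 library matches were best with their own number. With 3 libraries per group these values cannot decide whether the numbers mark a pairing. With the replicate number as a block, the counts past the threshold were 0 in the 4 comparisons. In that fit 533, 354, 382 and 895 genes had an unadjusted p under 0.05 by limma, beside 416, 256, 307 and 497 without the block. Fkbp1b had 3 to 34 reads per library, and the other members had at least 1413.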
